A study of Mus musculus with 12 samples.

Results

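The regions described here were the N6-methyladenosine (m6A) peaks that lay inside the protein-coding sequence (CDS) of mRNAs in dendritic cells (DC). They were all peaks whose listed location was the CDS and whose start lay beyond position 50 of the transcript, 16585 of the 40978 peaks in 3 lists. The lists came from meRIP-seq, in which fragmented mRNA was pulled down with an m6A antibody and sequenced beside untreated input, and there was 1 list for each DC type. All cells were grown from the bone marrow of C57BL/6 mice aged 6 weeks, with no genetic change named, in GM-CSF at 10 ng/ml and IL-4 at 1 ng/ml, and marrow of several mice was pooled. Immature DC (imDC) were the CD11c+ cells selected on day 5. Mature DC (maDC) were imDC given LPS at 100 ng/ml for 24 h. Regulatory DC (DCreg) were maDC kept on spleen endothelial cells for 7 days. Each type had 2 replicates with an IP and an input library each, 12 libraries in all, and no listed peak fell below a log2 enrichment of 1 in either replicate.

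m6A is the most abundant internal modification of mammalian mRNA and is written in the nucleus by a complex with METTL3 as its catalytic subunit. The complex prefers the consensus GGACU, read as GGACT in DNA letters, within a looser family of sequences around an AC core. The mark is best known around stop codons, in 3' UTRs and in long internal exons, where it is read by YTH-domain proteins that act on the splicing, decay and translation of the mRNA.

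The core motif is shown first at CDS peaks that the values below turn on, as 29 bases of coding strand with GGACT in capitals, read from the RefSeq mouse assembly GRCm38.p6 (mm10). The co-stimulatory ligand Cd80 and the TLR adaptor Tirap are shown because both belong to the pathways of DC activation, and the other genes because their peaks were among the strongest of a list.
Cd80 (exon 2, chr16:38474025-38474053, plus strand): agtataagaaccGGACTttatatgacaac
Tirap (exon 6, chr9:35189002-35189030, minus strand): ccacagtgaggaGGACTtggaggcggccc
Arih1 (exon 1, chr9:59486154-59486182, minus strand): ggggagcgagacGGACTgctgtgcgggga
Pde4b (exon 15, chr4:102605123-102605151, plus strand): tgagaggagcagGGACTgccaaggcctga
Fgl2 (exon 1, chr5:21372989-21373017, plus strand): gaaatcctgccaGGACTgtaagttgcagg
Bhlhe40 (exon 5, chr6:108664758-108664786, plus strand): cagtcatccagcGGACTtttgctccctcg
Nisch (exon 16, chr14:31177312-31177340, minus strand): gggcgccgatgaGGACTtcctgctggagc
Rnf11 (exon 3, chr4:109454388-109454416, minus strand): gatctgtatgatGGACTttgtttatgggg

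A second set of strong CDS peaks carried no listed GGACT in any list and was rich in purines, A and G. The 30-base stretch with the most purines in the DCreg peak of 5 such genes is shown in lower case throughout.
Zeb2 (exon 10, chr2:44988783-44988812, minus strand): gagaaggagcacgagaaggagggcgaggag
Hnrnpll (exon 1, chr17:80061744-80061773, minus strand): gacggcgaggaaggcgaaggtggagaagaa
Pelp1 (exon 16, chr11:70394180-70394209, minus strand): agaagaggaagaagaagaggaggaagaaga
Dek (exon 2, chr13:47105613-47105642, minus strand): cagggaagagagtgaggaggaggaggagga
Msn (exon 9, chrX:96163407-96163436, plus strand): gagaaagagaaggagaagattgagcgggag
In these stretches 27, 26, 30, 28 and 27 of the 30 bases were A or G.

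The CDS held the largest number of peaks of any location class in each of the 3 lists. Of the 10517 imDC peaks 3879 were CDS peaks, or 36.9%, with an exact binomial 95% interval from 36.0 to 37.8. For maDC it was 6543 of 17316, or 37.8% (37.1 to 38.5). For DCreg it was 6163 of 13145, or 46.9% (46.0 to 47.7). With 1 list for each type these shares have no replicate error, and all intervals on shares cover counting error alone. The DCreg share was also the highest among the 4589 transcripts that had a peak in all 3 lists, at 47.4% against 38.6% in imDC and 40.3% in maDC. A further 39, 51 and 33 CDS peaks of the 3 lists, in the same order, started at position 50 or before and were left out. Just inside the limit were Psmg1 in imDC (start 52, log2 enrichment 2.40 and 1.53 in the 2 replicates), Plaur in maDC (start 51, 1.66 and 1.71) and Lilra6 in DCreg (start 51, 1.91 and 2.78). Just outside were Usp39 (start 49, 2.89 and 1.81), Ddx27 (start 50, 2.27 and 3.45) and Dpcd (start 50, 2.34 and 1.35).

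CDS peaks lay on 2618 of the 6041 transcripts with a peak in imDC (43.3%), 3807 of 8050 in maDC (47.3%) and 3657 of 6658 in DCreg (54.9%). Over the 3 lists 4980 transcripts carried one, 1875 of them in every list, while 178 did so in imDC alone, 733 in maDC alone and 842 in DCreg alone. When a transcript had a peak of any kind in a pair of lists, its CDS status was kept more often than not. Of such transcripts with a CDS peak in imDC, 92.3% also had one in maDC and 79.8% the other way round. For maDC and DCreg the shares were 86.6% and 81.4%, and for imDC and DCreg 90.01% and 74.2%. The lists hold no expression values, so an absent peak cannot be told apart from a transcript that was absent or too rare.

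The mean number of CDS peaks on a transcript with at least 1 was 1.48, 1.72 and 1.69 for imDC, maDC and DCreg. The median peak spanned 185, 189 and 171 nt. The heaviest carriers were very long coding sequences. Kmt2d, a histone H3K4 methyltransferase with 16767 coding nt, had 16, 13 and 9 CDS peaks in the imDC, maDC and DCreg lists. Macf1, which links actin to microtubules, had 4, 14 and 12, and Ahnak, a giant scaffold protein, had 7, 10 and 10. Akap13, an anchor of protein kinase A, had 7, 9 and 10. Most of these peaks were of modest height: the 16 Kmt2d peaks of imDC had medians of 1.73 and 1.78 log2 in the 2 replicates and reached no more than 3.32 and 2.58.

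Longer coding sequences carried CDS peaks more often in every list. Among marked transcripts with 1000 coding nt or fewer, 20.1% had a CDS peak in imDC, 22.002% in maDC and 31.2% in DCreg. Above 4000 coding nt the shares were 79.2%, 87.1% and 88.4%. DCreg stood above the other lists in the shortest class by more than the counting intervals, which ran from 18.03 to 22.4 in imDC, 20.2 to 23.9 in maDC and 28.9 to 33.7 in DCreg.

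Along the coding sequence the peaks were spread with little slope. The median centre lay at 0.521 of the coding length in imDC, 0.535 in maDC and 0.518 in DCreg. When the coding sequence was cut into 10 equal stretches, stretch 1 held the fewest centres (7.65%, 6.42% and 7.30%) and stretch 9 the most (12.4%, 12.4% and 11.9%). Peaks at the start or stop codon form classes of their own and are not counted here.

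CDS peaks lay in long exons more often than their share of coding sequence, least so in DCreg. Internal exons of 150 nt or fewer held 19.4% of the internal CDS peaks of imDC and 18.4% of those of maDC, although they made up 37.2% and 38.2% of the internal coding nucleotides of the same transcripts. In DCreg they held 30.03% of the peaks and 40.4% of the nucleotides. Exons over 600 and up to 1000 nt held 2.72, 2.78 and 2.20 times their share of nucleotides in imDC, maDC and DCreg. The last exon also held more than its share, with 25.2%, 26.8% and 20.6% of CDS peaks against 15.1%, 15.8% and 13.97% of coding nucleotides.

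Distance from the nearest exon junction gave the same order. Centres over 100 nt from a junction made up 67.6% of CDS peaks in imDC (66.0 to 69.2) and 66.8% in maDC (65.6 to 68.0), but 50.6% in DCreg (49.3 to 51.9), while 35.7%, 34.6% and 31.3% of coding nucleotides lay that far away. Peaks shared by all 3 lists gave 66.2%, 66.9% and 65.7%. These are overlapping sites on the same transcripts, so their distances were close by construction and cannot show a gap. Of peaks found in 1 list only, 64.6% of those of imDC, 69.5% of those of maDC and 34.2% of those of DCreg lay that far away. Transcripts marked in all 3 lists still gave 67.1%, 66.1% and 52.4%. Within each list the share rose with enrichment, in DCreg from 43.7% of peaks whose lower replicate was under 1.5 to 67.4% of those at 3 or more.

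**Figure D1:**
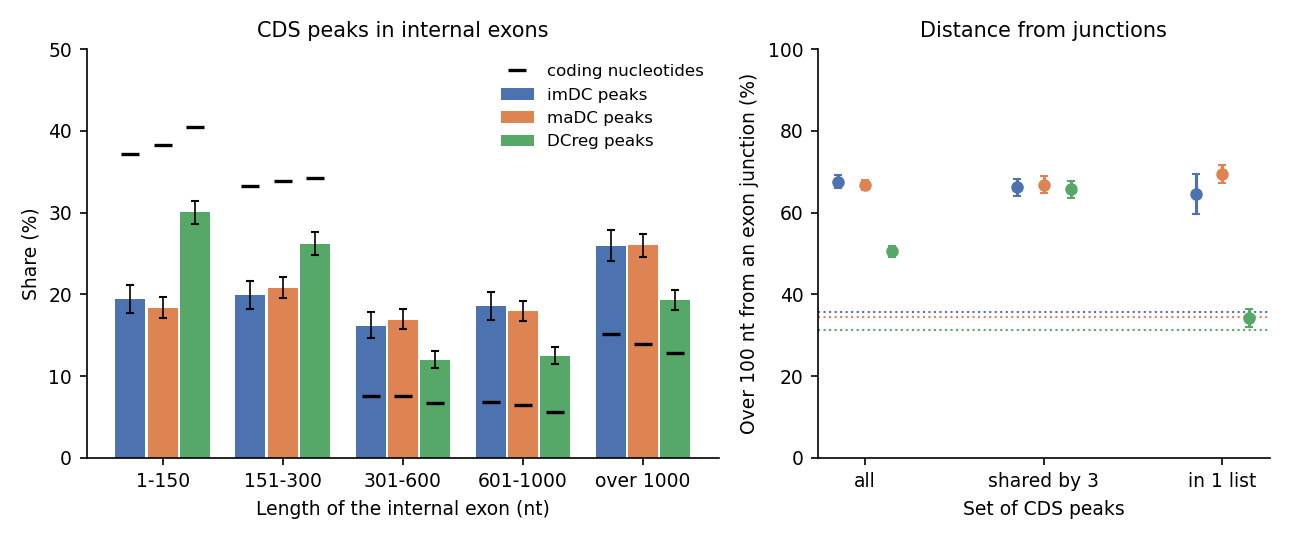
Left, the share of CDS peaks (bars, %) in internal exons of each length class beside the share of internal coding nucleotides in the same transcripts (black ticks), for imDC, maDC and DCreg. Right, the share of CDS peaks (%) with a centre over 100 nt from an exon junction, for all peaks, those shared by 3 lists and those in 1 list, with dotted lines for coding nucleotides; error bars are exact binomial 95% intervals, and DCreg peaks in 1 list fall to 34.2%.

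The core motif was listed in 1257 CDS peaks of imDC (32.4%, 30.9 to 33.9), 2102 of maDC (32.1%, 31.0 to 33.3) and 1635 of DCreg (26.5%, 25.4 to 27.7). Peaks over the stop codon held it more often, in 42.0%, 40.8% and 37.0%, and those in the 5' UTR less often, in 22.9%, 25.8% and 22.5%. In transcripts whose reference sequence bore out the listed positions, GGACT on the coding strand was in 30.4%, 30.5% and 24.8% of CDS peaks. For comparison, unmarked coding stretches of these transcripts, as long as the median peak, contained GGACT in 17.3%, 17.03% and 16.03% of cases. Wider peaks held it more often, 47.1% of imDC peaks of 250 nt or more against 29.7% of those of 150 to 199 nt.

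Per kilobase, GGACT was 1.77, 1.85 and 1.53 times as frequent inside CDS peaks as in unmarked coding sequence of the same transcripts in imDC, maDC and DCreg. Its close relatives GGACA (1.503, 1.48 and 1.39) and GGACC (1.48, 1.36 and 1.22) followed, while AAACA was rarer inside peaks (0.520, 0.653 and 0.681). Counting any of the 12 pentamers that join GG, GA, AG or AA to ACT, ACA or ACC on the coding strand gave shares near 100% in both peaks and unmarked stretches. At least 1 was in 94.8%, 96.02% and 95.4% of CDS peaks and in 93.8%, 94.2% and 92.7% of stretches, and the counting intervals were apart in maDC and DCreg and overlapped in imDC. Listed GGACT sites were somewhat central: 57.1%, 55.6% and 57.9% lay within 50 nt of the peak centre, where 49.4%, 48.7% and 53.5% of peak nucleotides lay. Most coding GGACT sites have GAC as the in-frame codon, the codon for aspartate, inside peaks (58.7%, 54.4% and 56.4%) and outside them (54.1%, 53.5% and 53.0%).

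Higher peaks held the core motif more often in imDC and maDC. Its share went from 29.2% of imDC peaks with a lower replicate value of 1 to 1.5 to 56.0% of the 25 peaks at 4 or more, and from 26.2% to 46.2% in maDC. In DCreg the change was small, from 24.0% to 29.5%. The interval for the 25 imDC peaks, 34.9 to 75.6, is wide.

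High CDS peaks were purine-rich more often than low ones in all 3 lists. At least 65% of the bases were A or G in 16.7%, 16.03% and 15.9% of the CDS peaks of imDC, maDC and DCreg, but in 2.96%, 2.04% and 2.34% of unmarked coding stretches of the same transcripts. These stretches had 1 length per list, that of the median peak, whereas peaks varied in width. Among peaks at 4 or more in both replicates the shares were 43.5%, 35.3% and 38.6%. This set and the GGACT set overlapped little: peaks without a listed GGACT were that rich in purines in 20.2%, 19.8% and 18.4%, and those with one in 8.52%, 7.40% and 8.38%. Across peaks the correlation of the purine percentage with the lower enrichment was weak, with Pearson r = 0.103, 0.107 and 0.160 over 3400, 5759 and 5442 peaks of shared libraries, as a description.

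**Figure D2:**
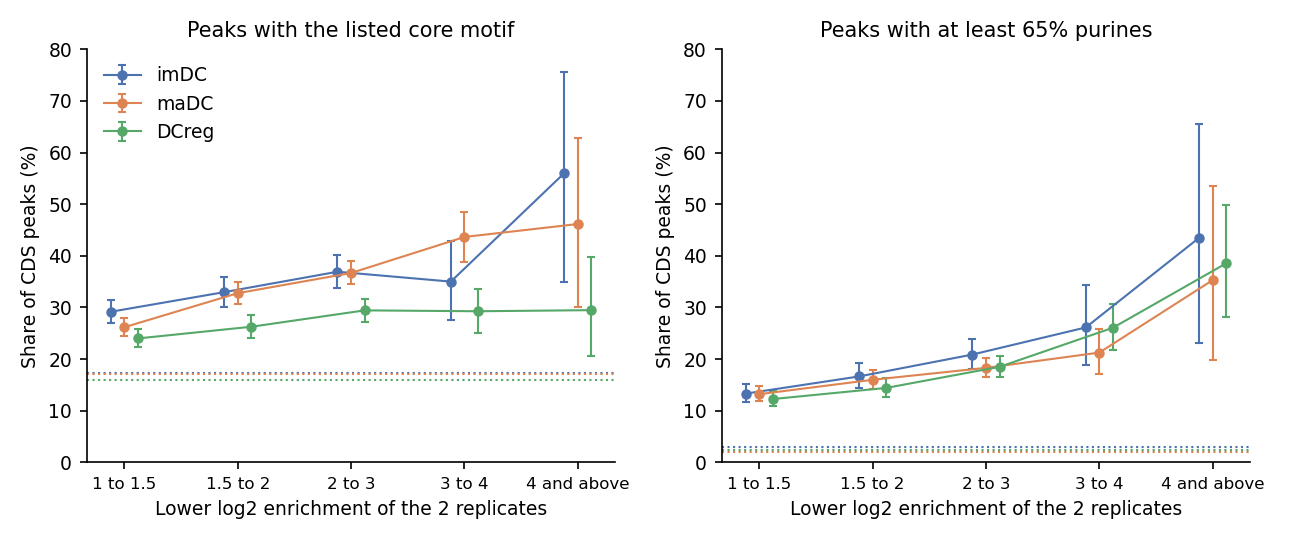
The share of CDS peaks (%) that hold the listed core motif (left) and that have at least 65% purines (right) by the lower log2 enrichment of the 2 replicates, in imDC, maDC and DCreg. Error bars are exact binomial 95% intervals and dotted lines the share in unmarked coding stretches; the purine share reaches 43.5%, 35.3% and 38.6% at 4 and above.

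Runs of GGACT marked a few peaks. Son, a splicing cofactor of nuclear speckles, had the most, 8 in imDC, 9 in maDC and 8 in DCreg within 1 peak of exon 3. The sites follow each other every 30 nt in a tandem repeat of the protein, each with GAC in frame, and 4 of the units are shown with GGACT in capitals.
Son 1 (chr16:91656592-91656620, plus strand): atccaataccatGGACTcccagatgttag
Son 2 (chr16:91656622-91656650, plus strand): ctctagcaccatGGACTcccagatgttag
Son 3 (chr16:91656682-91656710, plus strand): aactagcaccatGGACTcccagatgttag
Son 4 (chr16:91656802-91656830, plus strand): aaccagcagtatGGACTcccagatgttag
The Son peak was of ordinary height, with 1.90 and 2.39 in imDC, 2.20 and 2.87 in maDC and 2.76 and 1.95 in DCreg. Repeats in Kmt2d also held the motif, at sites that lie in CDS peaks of imDC and maDC.
Kmt2d 1 (exon 11, chr15:98863502-98863530, minus strand): cccaccacccgaGGACTctcctgcctcac
Kmt2d 2 (exon 11, chr15:98863448-98863476, minus strand): cccaccacccgaGGACTctcctgcctcac
These 2 windows have the same sequence, so short reads from one could match the other. The same limit holds for Son, where some neighbouring units, Son 2 among them, share their 29 bases with a unit that is not shown. Scaf8, an RNA polymerase II regulator, had 5 motifs in 1 peak in each list, with 1.92 and 2.50 in imDC, 2.19 and 3.49 in maDC and 2.12 and 1.11 in DCreg.

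CDS peaks were shared between lists to different extents. A peak was taken as shared when the peaks of both lists overlapped by at least 50% of the shorter one on the same transcript. Of the imDC CDS peaks, 79.6% had a CDS partner in maDC and 64.4% in DCreg. Of those of maDC, 47.2% had one in imDC and 54.4% in DCreg, and of those of DCreg 40.5% and 57.7% had one in imDC and maDC. All 3 lists shared 2211 CDS peaks, which were 57.0% of the imDC, 33.8% of the maDC and 35.9% of the DCreg members.

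The shared peaks were higher and held the core motif more often. The 2211 had medians of 2.02 and 2.22 in imDC, 2.19 and 2.65 in maDC and 2.69 and 2.46 in DCreg, whereas peaks in 1 list had medians of 1.53 and 1.47 (443 peaks), 1.53 and 1.81 (2044) and 1.68 and 1.69 (2071). GGACT was in 34.4%, 35.1% and 31.8% of the shared peaks and in 23.02%, 29.5% and 19.99% of those in 1 list, for imDC, maDC and DCreg. The shared peaks were also wider, with medians of 189, 198 and 179 nt against 170, 180 and 162 nt. The part of width in the motif shares was not tested. A shared peak also had to reach a log2 enrichment of 1 in all 6 replicates.

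The 10 shared CDS peaks with the highest lowest value stayed at 3.94 or above in all 6 replicates. Hnrnpll, a splicing regulator of lymphocytes, gave 5.14 and 4.59 in imDC, 4.86 and 4.77 in maDC and 5.27 and 5.88 in DCreg, and its peak held no GGACT in any list. Nisch, which encodes the imidazoline receptor nischarin, gave 5.12 and 4.71, 4.86 and 4.57, and 5.63 and 6.66. The GGACT shown lay in these imDC and maDC peaks and, in DCreg, in another CDS peak of the gene. The DCreg replicates were the highest for both genes. Pde4b, a cAMP phosphodiesterase that is active in leukocytes, ran the other way, with 5.64 and 5.34 in imDC, 5.61 and 6.14 in maDC and 5.14 and 4.56 in DCreg.

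Zeb2, a zinc finger transcription factor of the DC and macrophage lineages, gave 4.71 and 4.32 in imDC, 4.54 and 4.53 in maDC and 6.05 and 7.66 in DCreg. Dek, a chromatin protein, gave 5.91 and 4.75, 4.50 and 4.47, and 4.78 and 6.42, with overlapping replicates. Bhlhe40, a transcription factor that restrains IL-10 in myeloid cells, gave 5.70 and 4.58, 4.37 and 4.61, and 4.08 and 4.78. Msn, which encodes the actin linker moesin, gave 4.24 and 3.98, 4.04 and 4.07, and 5.02 and 5.15. Rnf11, Trim44 and Ndst2, which encode ubiquitin-pathway proteins and a heparan sulfate enzyme, completed the set with values of 3.94 to 5.82.

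**Figure D3:**
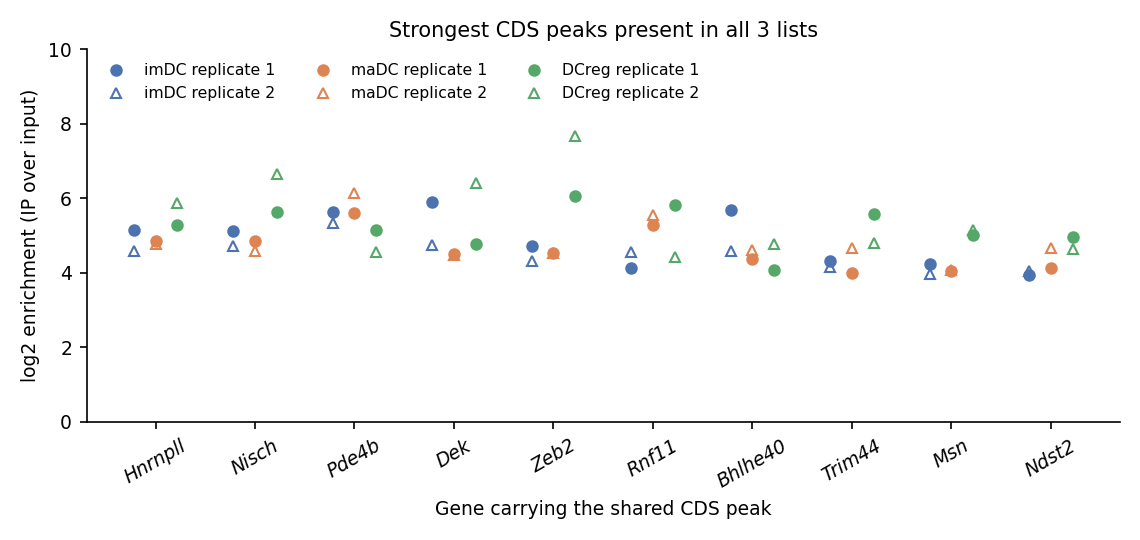
The log2 enrichment of IP over input (vertical axis) in each replicate of imDC, maDC and DCreg for the 10 CDS peaks shared by all 3 lists with the highest lowest value. No point is below 3.94, and the highest is Zeb2 in DCreg replicate 2, at 7.66.

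Other strong sites were high in all 3 types as well. Arih1, a ubiquitin ligase that works with cullin complexes, had the highest lower value of imDC, 6.26 and 5.41, with 5.79 and 5.60 in maDC. Its DCreg peak, 6.30 and 5.28, started at position 42 and so lay outside the Start limit. Fgl2, which encodes a fibrinogen-like protein of macrophages and regulatory T cells, gave 4.51 and 4.58 in imDC, 4.59 and 5.12 in maDC and 4.75 and 3.48 in DCreg, which overlap. Pik3r1, the regulatory subunit of class IA PI3-kinase, gave 5.30 and 4.598 in imDC, 3.88 and 5.06 in maDC and 5.57 and 3.62 in DCreg, which overlap too. Among DCreg peaks, Pelp1, a nuclear receptor coactivator, gave 5.50 and 5.77 and was 86.7% purine. Present in all 3 lists, the reader Ythdf3, one of the YTH proteins that bind m6A, gave 3.47 and 4.17 in imDC, 4.21 and 5.71 in maDC and 5.30 and 5.01 in DCreg.

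The level of CDS peaks was set against the other location classes over the 6 replicates. Medians over CDS peaks were 1.83 and 1.999 in imDC, 1.83 and 2.19 in maDC and 2.16 and 1.98 in DCreg. Over stop codon peaks they were 1.85 and 2.27, 2.06 and 2.28, and 2.50 and 1.97. CDS minus stop codon averaged -0.16 ± 0.14 (SD, n = 6) and was above 0 in 1 of 6 replicates (exact two-sided sign-flip permutation test, p = 0.0625, adjusted p = 0.25 over 4 classes). CDS minus 3' UTR averaged -0.05 ± 0.10 (exact permutation p = 0.25, adjusted 0.333), CDS minus start codon 0.10 ± 0.15 (exact permutation p = 0.1875, adjusted 0.333) and CDS minus 5' UTR -0.0034 ± 0.21 (exact permutation p = 1). The smallest p of this design is 0.03125. A class alone at that exact permutation p would have an adjusted p of 0.125, so 1 class by itself could not pass 0.05. The 2 replicates of a type share 1 list, so the 6 differences are not fully independent.

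**Figure D4:**
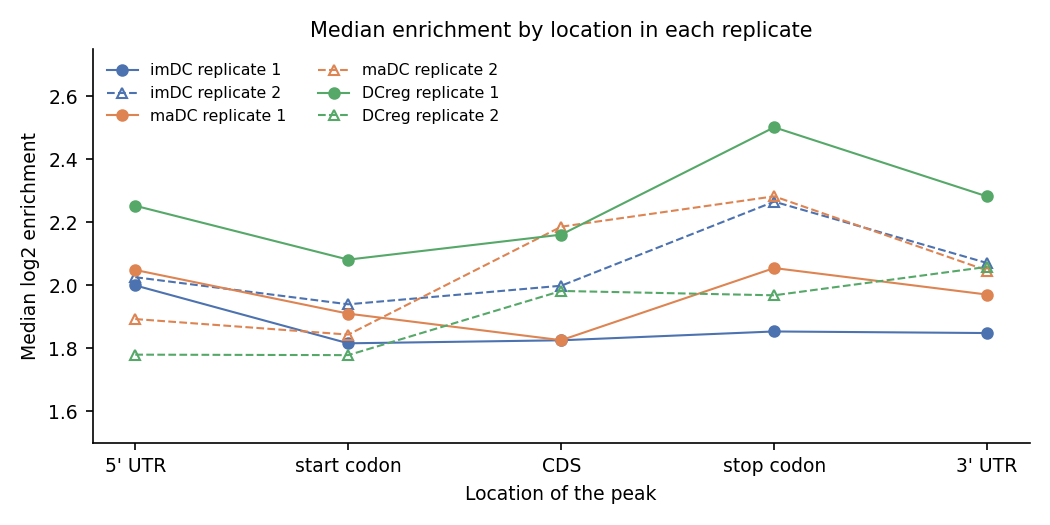
The median log2 enrichment (vertical axis, not from 0) of peaks in the 5' UTR, over the start codon, in the CDS, over the stop codon and in the 3' UTR, 1 line for each replicate. The lines cross, and CDS medians run from 1.83 to 2.19.

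Differences between DC types at a shared CDS peak were tested with limma over shared peaks of every location. Each value belongs to the peak as listed for that type, and the spans of a pair can differ. At Pelp1 the peak ran from 2708 to 2888 in DCreg and from 2751 to 3140 in imDC. The study calls the replicates biological without saying, in the sources at hand, whether each had its own pool of mice, and the p-values measure the spread between these 2 samples per type. From imDC to maDC none of 3087 CDS peaks passed an adjusted p of 0.05 and neither did any of all 8306 (0%), while 92 CDS peaks had an unadjusted limma p under 0.05, 81 higher and 11 lower in maDC, beside 3.54% of all peaks. The median difference was 0.21 over CDS peaks and 0.21 over all. With each replicate centred on its median, those 81 and 11 became 28 and 62, so the direction depends on the scaling. Leaving out imDC replicate 2 gave 18 called CDS peaks, 11 higher and 7 lower, among 107 called of all 8306, and leaving out any other replicate gave 0. Such a fit takes its spread from the type that keeps both replicates. Replicates did not overlap at 747 higher (24.2%) and 198 lower (6.41%) CDS peaks, beside 23.6% and 7.46% of all shared peaks.

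The largest rises from imDC to maDC with separate replicates were at Zswim6 (maDC 4.11 and 4.89, imDC 1.52 and 3.39), Avl9 and Fam208b. Avl9, a factor of late secretory traffic, gave 3.11 and 4.54 against 1.46 and 2.17. Each of these differences had a limma adjusted p = 0.982. The largest falls with separate replicates were at Yy1, a zinc finger transcription factor (maDC 3.30 and 2.18, imDC 4.96 and 3.63), Gbp2, an interferon-induced GTPase (1.37 and 1.24 against 4.03 and 1.59), and Rnpepl1. For Gbp2 imDC replicate 2, at 1.59, was near the maDC values, and for Rnpepl1 likewise (1.49 and 1.74 against 4.34 and 1.83).

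Between maDC and DCreg, 22 of 8485 shared peaks (0.259%) were higher in DCreg and none lower, and 2 of these were among the 3557 CDS peaks. Pabpc4, which encodes an inducible cytoplasmic poly(A)-binding protein, gave 5.30 and 7.16 in DCreg and 2.87 and 3.15 in maDC, a difference of 3.22 (SE 0.70, limma adjusted p = 0.0066). In imDC it gave 4.00 and 2.80. The DCreg peak is centred on exon 5 of 15, a 95-nt exon, and holds no GGACT. Phactr2, a phosphatase and actin regulator, gave 4.30 and 4.95 in DCreg, 1.12 and 2.17 in maDC and 2.40 and 1.87 in imDC, with a DCreg to maDC difference of 2.98 (SE 0.72, limma adjusted p = 0.0238). Both peaks cross exon junctions. For each DCreg peak the pentamer of the family nearest its centre, among those whose 29 bases lie in 1 exon, is shown in capitals.
Pabpc4 (exon 5, chr4:123290933-123290961, plus strand): gtaagttacgagAAACAcgaggatgccaa
Phactr2 (exon 11, chr10:13232577-13232605, minus strand): gacagattccccAGACTatgaccgccgag
Neither call held in every setting, and the number of CDS calls was 34 without DCreg replicate 1, among 143 of all 8485 peaks, and 0 without any other single replicate. With the replicate number as a block the limma adjusted p was 0.0501 for Pabpc4 and 0.416 for Phactr2, without the variance trend it was 0.105 for both, and leaving out 1 replicate gave 0.0015 to 0.786 for Pabpc4 and 0.0063 to 1.00 for Phactr2. Pabpc4 has close paralogs such as Pabpc1, and how reads matching both were placed was not stated in the sources at hand.

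Other CDS peaks differed between maDC and DCreg without passing the adjusted limma test. Zeb2 was 2.32 higher in DCreg (SE 0.64, limma adjusted p = 0.077) and Pelp1 2.25 higher (SE 0.71, limma adjusted p = 0.217). The largest falls were at Parp8, a member of the PARP family (DCreg 2.79 and 1.11, maDC 3.82 and 4.12), Kdm3a, a histone H3K9 demethylase (1.51 and 1.04 against 3.05 and 3.21), and Tbc1d8, a Rab GTPase-activating protein (2.83 and 1.56 against 3.99 and 4.08). In each of these 3 the DCreg values lay below both maDC values. At an unadjusted limma p under 0.05 there were 167 higher and 58 lower CDS peaks beside 7.11% of all shared peaks. The median difference over these CDS peaks was 0.13. It was -0.025 without maDC replicate 1, 0.33 without maDC replicate 2, -0.0088 without DCreg replicate 1 and 0.25 without DCreg replicate 2. The direction of the median thus depends on the replicates kept. A single fit of 6 replicates covered only the 2211 CDS peaks shared by all 3 lists. At the same limma threshold it gave 115 higher and 26 lower, and 83 and 62 with the kit as a term. Replicates did not overlap at 910 higher (25.6%) and 399 lower (11.2%) of the 3557. All shared peaks, these CDS peaks included, gave 21.6% and 14.6%. The CDS share was thus above that of all peaks for rises and below it for falls, a difference that was not tested.

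**Figure D5:**
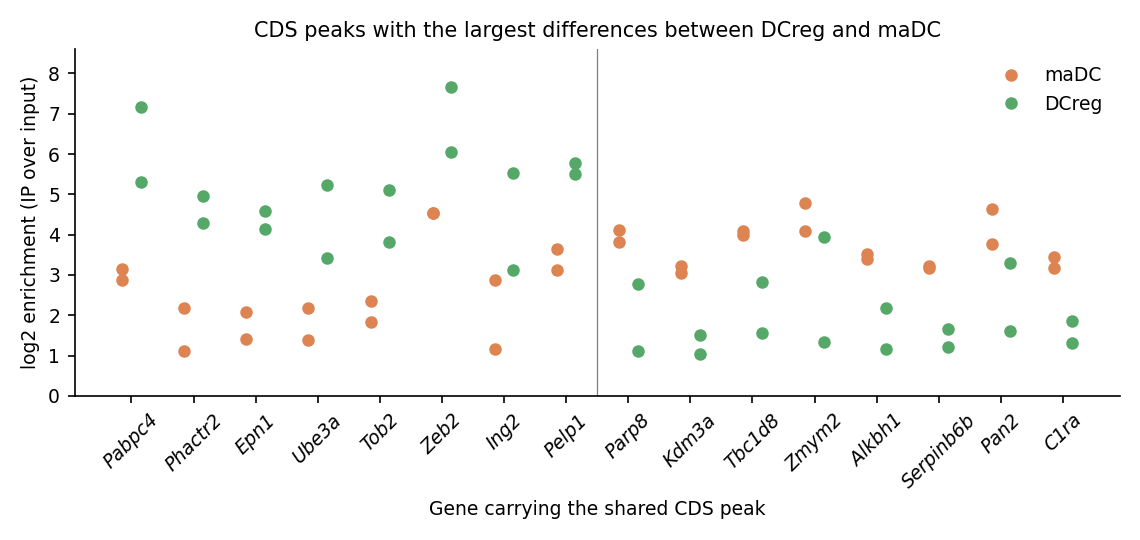
The log2 enrichment of IP over input (vertical axis) in both replicates of maDC and of DCreg for the 8 shared CDS peaks with the largest rise (left of the line) and the 8 with the largest fall (right) from maDC to DCreg. Pabpc4 and Phactr2 alone passed the adjusted limma test.

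The third comparison uses the same imDC and DCreg samples again. From imDC to DCreg no CDS peak of 2499 and no peak of all 6124 (0%) passed, while 172 CDS peaks had an unadjusted limma p under 0.05, 164 higher and 8 lower, beside 6.3% of all. Centred replicates turned this split to 52 and 47. Replicates did not overlap at 947 higher (37.9%) and 117 lower (4.68%) CDS peaks, beside 30.2% and 7.17% of all shared peaks. The median difference was 0.43 over CDS peaks and 0.31 over all shared peaks. Pelp1 (DCreg 5.50 and 5.77, imDC 2.54 and 3.03) and Asxl2, a Polycomb-associated chromatin protein (4.37 and 4.65 against 1.43 and 2.56), rose most beside Pabpc4. Yy1 (1.93 and 1.84 against 4.96 and 3.63) and Marcks, a protein kinase C substrate at the membrane (2.72 and 3.51 against 7.35 and 3.56), fell most. For Marcks imDC replicate 2 was close to DCreg, and imDC replicate 1, at 7.35, was the highest value of any CDS peak in that replicate. All these had a limma adjusted p = 0.777.

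The immune molecules of DC carried CDS peaks to very different extents. Over the 3 lists 54.5% of transcripts with a peak had one in the CDS, 4980 of 9142. Of the co-stimulatory and co-inhibitory molecules it was 3 of 14, the ligands Cd80, Cd274 (PD-L1) and Pdcd1lg2 (PD-L2), while Cd40, Cd83 and Cd86 had peaks elsewhere only. Cd80 gave 1.89 and 1.73 in imDC and 1.42 and 1.78 in maDC and had no CDS peak in DCreg. Cd274 was the highest of the group, with 3.34 and 2.89 in imDC, 2.79 and 3.08 in maDC and 3.98 and 3.53 in DCreg, and GGACT was listed in each of these 3 peaks. Pdcd1lg2 gave 1.14 and 3.00 in imDC and 2.28 and 1.47 in maDC, values that overlap.

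Few cytokine genes had CDS peaks, 2 of 13, the growth factor Csf1 and the cytokine subunit Ebi3. Csf1 gave 2.61 and 2.13 in imDC, 1.57 and 1.67 in maDC and 1.97 and 1.72 in DCreg, always with GGACT, and Ebi3 gave 1.86 and 2.43 in maDC alone. All 6 of the 19 chemokine genes and receptors with a CDS peak were receptors, among them Ccr2 (highest peak 1.54 and 3.33 in imDC, 1.79 and 3.47 in maDC, 3.15 and 3.95 in DCreg). Of the cytokine receptors it was 14 of 29. Il4ra, the receptor of the IL-4 in the medium, gave 3.08 and 3.33 in imDC, 2.04 and 2.36 in maDC and 2.45 and 2.34 in DCreg at 1 of its sites. The part of coding length in these counts was not tested.

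TLR signalling had CDS peaks in 21 of 32 marked genes, which were 11 of 19 for imDC, 18 of 31 for maDC and 18 of 28 for DCreg, beside 43.3%, 47.3% and 54.9% of all transcripts with a peak. The adaptor Tirap, which brings MyD88 to TLR2 and TLR4, gave 1.05 and 2.41 in maDC and 1.85 and 1.36 in DCreg, with 1 GGACT in each peak and no CDS peak in imDC. The ubiquitin ligase Traf6 gave 2.23 and 3.19 in imDC, 3.28 and 3.89 in maDC and 3.46 and 1.75 in DCreg, so that only imDC and maDC did not overlap. The kinase Irak4 gave 2.95 and 2.30 in imDC, 2.01 and 2.27 in maDC and 2.94 and 4.20 in DCreg.

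Of the NF-kB pathway it was 22 of 30, the deubiquitinases Tnfaip3 (A20) and Cyld among them, beside 54.5% of all transcripts with a peak. At 1 site of Tnfaip3 the values were 1.29 and 2.753 in imDC, 2.52 and 2.58 in maDC and 1.89 and 1.03 in DCreg, which overlap between imDC and the other types. Rela, the transactivating subunit, had one in DCreg alone, at 2.31 and 1.09. Of the NLR and inflammasome genes it was 17 of 19, made up of 6 of 8 in imDC, 14 of 17 in maDC and 11 of 15 in DCreg. Nlrp1b, an inflammasome sensor, gave 1.25 and 3.09 in maDC and 4.32 and 3.39 in DCreg.

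Chromatin regulators with a peak nearly all had one in the CDS, beside 54.5% of all transcripts with a peak. It was 40 of 43 histone lysine methyltransferases and demethylases and 42 of 43 chromatin remodelers and coactivators. Other nuclear proteins had fewer, with 19 of 30 DC transcription factors and 75.1% of 201 Zfp genes. Longer coding sequences carried CDS peaks more often in every list, and the part of coding length in these counts was not tested. Kmt2c, a relative of Kmt2d, gave 2.88 and 3.57 in maDC and 4.42 and 4.31 in DCreg at its highest peak, in exon 52 of 59 in both, and 1.12 and 2.004 in imDC at its highest, in exon 24. Setd1b, another H3K4 methyltransferase, gave 2.86 and 2.98, 3.05 and 3.36, and 4.30 and 3.77. Of the m6A machinery itself it was 16 of 19, the readers Ythdf1, Ythdf2, Ythdf3 and Ythdc1 and the eraser Alkbh5 included, while the writer component Wtap had peaks elsewhere only. Mettl14, the partner of METTL3, had a low CDS peak in DCreg alone, at 1.32 and 1.31.

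Marked DNA repair and cell cycle genes had a CDS peak in a larger share in DCreg than in the other lists. So had all transcripts with a peak, at 43.3%, 47.3% and 54.9% in imDC, maDC and DCreg. Of DNA repair genes 10 of 15 marked ones had a CDS peak in imDC, 17 of 22 in maDC and 26 of 29 in DCreg, and of cell cycle genes 7 of 14, 9 of 18 and 19 of 24. Top2a, the topoisomerase of dividing cells, gave 1.15 and 3.29 in imDC, 2.65 and 3.34 in maDC and 3.17 and 4.04 in DCreg at 1 site. Parp1, a sensor of DNA breaks, gave 1.79 and 2.46, 2.47 and 3.01, and 3.59 and 3.13. Fancm, a helicase of the Fanconi pathway, gave 2.20 and 2.62 in imDC and 3.78 and 3.15 in DCreg, with 2 GGACT in each.

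Stromal markers had peaks in DCreg more often than in the other lists. Macrophage markers had them more often than in imDC, but at a count close to that of maDC. Endothelial, neutrophil and lymphocyte markers were not most often marked in DCreg. Of all 9142 transcripts with a peak in any list, 6041, 8050 and 6658 had one in imDC, maDC and DCreg. Of the DC markers, 12, 14 and 8 of 15 had a peak of any kind in imDC, maDC and DCreg. Of 10 stromal markers it was 1, 1 and 5, and all 5 of DCreg had CDS peaks, for example Col3a1 (2.76 and 3.39) and Fn1 (2.63 and 3.14). Fn1 also had a CDS peak in imDC, at 1.51 and 1.19. Of 8 macrophage markers it was 3, 6 and 7, of 12 spleen endothelial markers 1, 4 and 2, of 8 neutrophil markers 3, 3 and 2, and of 8 lymphocyte markers 0 in each list. Vwf, an endothelial clotting factor, had CDS peaks at 1 site in maDC (1.77 and 2.23) and DCreg (2.89 and 2.11). The part of other cells in the DCreg peaks was not tested, and in bulk samples fewer cells of a type and less RNA per cell cannot be told apart. The library kit also moved with DC type. The sample labels name TruSeq for the first replicates of imDC and maDC and NEBNext Ultra for the remaining 4 replicates, both of DCreg included. The study's methods name NEBNext Ultra alone, so the kit term rests on the labels, and the part of the kit in the differences was not tested beyond a limma fit of all 6 replicates, in which no CDS peak passed with or without the kit as a term.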

How the data were processed

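meRIP-seq of imDC, maDC and DCreg was analysed from 1 peak list per type. As the study's methods and the submitters' processing notes give it, the authors aligned reads to mm10 with TopHat2 2.0.14, counted them in sliding windows on the longest RefSeq isoform, compared IP with input by edgeR and joined windows passing in both replicates. The deposited values are the log2 enrichment of IP over input per replicate, each scaled by the median window of the transcript, so transcript abundance is divided out. Peaks near start or stop codons form their own classes. The lists hold no counts, so the depth of the libraries and the precision it gives are unknown.

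Members and gene lists were chosen with earlier results of these data known. Positions were placed on RefSeq GRCm38.p6 for 9072 of 9142 transcripts, and the sequence bore out the listed GGACT positions in 8185, on which motif, exon and base composition counts rest. Shared peaks were tested with limma 3.58.1 in R 4.3.3 (trend, Benjamini-Hochberg over all shared peaks, adjusted p under 0.05), after a check on simulated data. There, planted log2 changes of 2 were recovered at 8.96% of changed peaks for imDC to maDC. The share was 2.99% for maDC to DCreg and 1.49% for imDC to DCreg. For changes of 4 it was 65.7%, 53.7% and 58.2%, so a peak that was not called may still differ. Shares have exact binomial (Clopper-Pearson) 95% intervals from SciPy 1.17.1. Named genes were, by rule, the strongest, most shared, most differing and most motif-rich CDS peaks, those of most peaks per transcript, those the study names and up to 4 per gene list; other names were given where a count was small. Replicate columns name no sample and were numbered as the labels number replicates, which could not be checked. Alternatives changed the pairing, overlap, scaling, variance model, enrichment threshold, kit term, Start limit and replicates. The labels give no shared animal for a replicate number, so the numbers were not used as pairs. The deviations of same-numbered replicates from the mean of their type had correlations of -0.12, -0.04 and -0.35.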

Additional observations from a re-analysis of the deposited data

How the results depend on the processing

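The count of CDS peaks called between maDC and DCreg, 2, did not hold. It was 0 with the replicate number as a block, 0 without the variance trend, 0 in a single fit of 6 replicates with or without the kit, 1 among peaks at 1.5 or more in all 4 replicates and 1 at an overlap of at least 80%. Leaving out 1 replicate gave 0 to 34, the 34 (28 higher, 6 lower, among 143 of all peaks) without DCreg replicate 1 and 0 without any other; the lone sample is then assumed to vary like the other type. Between imDC and maDC leaving out 1 replicate gave 0 to 18, the 18 without imDC replicate 2 (11 higher, 7 lower, among 107 of all peaks). A crossed pairing of the replicate numbers, chosen after seeing the data, gave 0, 8 and 9 calls for imDC to maDC, maDC to DCreg and imDC to DCreg, among 1, 57 and 38 over all peaks. The block changed no other call. CDS minus 5' UTR turned to 0.0045 at 1.5 or more in both replicates, 0.070 within transcripts and 0.14 for the strongest peak of each transcript, and ranged from -0.063 to 0.041 with 1 replicate left out. CDS minus 3' UTR turned to 0.031 within transcripts. For the strongest peak of each transcript CDS minus start codon was 0.25, above 0 in 6 of 6 replicates (exact permutation p = 0.03125, adjusted 0.125), and CDS minus stop codon -0.0084. None of these had an adjusted p under 0.05 in the exact permutation test. At 2 or more in both replicates GGACT was in 37.1%, 38.1% and 29.4% of CDS peaks of imDC, maDC and DCreg, and in transcripts with checked sequence in 30.3%, 30.5% and 24.8%. The CDS share was 35.4% in imDC and 37.0% in maDC at 2 or more, and 43.3%, 47.3% and 54.9% over transcripts. The cause of these shifts was not tested. With 2 replicates per type and a lower limit on every listed value, differences between types could be measured only at peaks present in both lists.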
